A study of Mus musculus with 15 samples.

Results

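Chr2 and Chr9 of the mouse were followed with 5981 probes of a whole-genome array, 3524 on Chr2 and 2457 on Chr9, out of 42404 non-control probes of which 40726 were autosomal. The members were all non-control probes whose array position lay on either chromosome, and the pair was chosen because the mean levels of the chromosomes in hepatocellular carcinoma (HCC) were the least changed among autosomes. HCC levels of Chr2 and Chr9 against unaffected liver are therefore given as a description without a test. DNA came from 5 HCCs and 3 unaffected livers of 3 mice of strain C57BL/6.129-Mad2flox,p53flox,AlbuminCre. Mouse 3151 was a female of 16.4 months with genotype Mad2(f/f) p53(f/+), and gave HCCs 3151-T1 and 3151-T2 and liver 3151-L. Both other animals were male and had genotype Mad2(f/f) p53(f/f); mouse 3760, aged 13.8 months, and mouse 4033, aged 13.9 months, gave HCC 3760-T2 with liver 3760-L, and HCCs 4033-T1 and 4033-T2 with liver 4033-L. Each sample was hybridized against normal liver DNA of the other sex from strain C57BL/6.129, so mouse 3151 had a male reference and the others a female one. Mouse, sex, p53 genotype and reference cannot be told apart between mouse 3151 and the other mice. The Albumin promoter drives Cre in hepatocytes, so other liver cells of every sample kept the floxed alleles, and all 8 tissues including the control livers carried the Cre system. Tumors of one mouse shared an animal and are not independent replicates of a genotype.

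Array comparative genomic hybridization measures the DNA of a tissue against reference DNA on the same slide. A probe's log2 ratio is above 0 where the tissue gives more signal than the reference, as it does with more copies. Whether a single probe was moved by copies or by its sequence was not tested. Mad2l1, the gene called Mad2 in the genotypes, encodes a spindle checkpoint protein that holds cells in mitosis until every chromosome is attached to the spindle, and Trp53 encodes the p53 tumor suppressor. Loss of the checkpoint lets whole chromosomes go to the wrong daughter cell, which would move all probes of a chromosome together, whereas inherited differences between the mouse and its reference move single probes or short runs and are shared by the tumor and the liver of one animal. In bulk DNA, a change in fewer cells and a smaller change per cell cannot be told apart. The scale was read from the X chromosome, where tissue and reference differed by sex: its level was 0.88 in 3151-L, -0.87 in 3760-L and -0.92 in 4033-L. One extra copy of an autosome in every cell would give a log2 ratio of 0.58.

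The sequences below belong to the probes that carry the differences between mice described later. The first are the 5 neighboring probes of Chr9 that formed the only run of 3 or more called probes, over chr9:46687599-46821302. They are followed by the probe with the smallest adjusted p on each chromosome, in Uqcc on Chr2 and Elovl4 on Chr9, and by 3 probes of a Chr2 stretch in which 4033-T2 did and did not keep the value of its liver. Positions are as the array design gives them, in a genome build the files do not name. All are written 5′ to 3′ as the array files list them. No stretch within a probe was singled out, so no letter is capitalized, and the files give no exon or intron annotation.
chr9:46687599-46687658, no gene name: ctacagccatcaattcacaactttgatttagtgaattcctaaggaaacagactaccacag
chr9:46723478-46723537, AK038437: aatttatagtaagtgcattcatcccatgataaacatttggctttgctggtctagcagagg
chr9:46728138-46728197, AK038437: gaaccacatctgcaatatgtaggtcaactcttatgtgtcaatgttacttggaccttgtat
chr9:46737379-46737438, no gene name: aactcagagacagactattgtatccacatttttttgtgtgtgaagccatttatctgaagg
chr9:46821243-46821302, no gene name: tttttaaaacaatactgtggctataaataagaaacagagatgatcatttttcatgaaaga
chr2:155706763-155706822, Uqcc: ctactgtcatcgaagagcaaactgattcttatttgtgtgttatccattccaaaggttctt
chr9:83686820-83686879, Elovl4: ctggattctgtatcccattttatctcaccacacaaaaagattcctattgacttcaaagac
chr2:118123209-118123268, Gpr176: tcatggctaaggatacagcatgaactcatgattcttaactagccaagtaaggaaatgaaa
chr2:118303332-118303391, Srp14: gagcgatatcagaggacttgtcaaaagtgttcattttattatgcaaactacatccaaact
chr2:118754211-118754270, Chst14: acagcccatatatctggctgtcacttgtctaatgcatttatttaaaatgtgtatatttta

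Probes on Chr2 ran from chr2:3104269 to chr2:181602893 with a median spacing of 19.8 kb, and those on Chr9 from chr9:3156654 to chr9:124036898 with 21.1 kb. The largest gap between probes was 3.77 Mb on Chr2 (97529095 to 101294782) and 2.91 Mb on Chr9 (10325392 to 13235680). Probe GC content had the same median of 36.7% on both chromosomes. Over the 15 arrays, signal was 3.78 to 6.88 times background in green and 3.72 to 7.95 times in red, between 0.191% and 2.31% of probes were dim, and the noise between neighboring probes was 0.0835 to 0.203. The number of tissues, rather than the number of probes, limits the precision of each comparison.

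Neither chromosome was changed in most HCCs. The level of a chromosome is the mean log2 ratio of its probes after each array was centered on its autosomal median. Chr2 was at 0.11 in 3151-T1, -0.02 in 3151-T2, 0.00 in 3760-T2, 0.33 in 4033-T1 and -0.12 in 4033-T2. The unaffected livers were at 0.01 in 3151-L, 0.01 in 3760-L and -0.00 in 4033-L, so 4033-T1 alone stood above the 0.3 used to call a whole-chromosome change. Chr9 was at 0.08 in 3151-T1, 0.03 in 3151-T2, -0.28 in 3760-T2, -0.04 in 4033-T1 and -0.12 in 4033-T2, and at -0.03, -0.00 and 0.01 in 3151-L, 3760-L and 4033-L. HCCs spread over a wider range than livers on both chromosomes, and the values nearest to the threshold were Chr9 of 3760-T2, just short of it, and Chr2 of 4033-T1, just past it. The mean over HCCs was 0.06 ± 0.17 (SD, n = 5) on Chr2 and -0.07 ± 0.14 (SD, n = 5) on Chr9. HCC minus liver was 0.05 on Chr2 and -0.06 on Chr9 over all tissues. By scan day it was 0.165 and -0.168 on the first and -0.0225 and 0.0255 on the second, so neither sign held on both days. The first day held 3760-T2 and 4033-T1 with their own livers. The second held 3151-T1, 3151-T2 and 4033-T2 with 3151-L as the only liver. Scan day and tumor therefore cannot be told apart. Against the liver of the same mouse, 2 of 5 HCCs were higher on Chr2 and 2 of 5 on Chr9. The standard error of a level over its probes was 0.003 to 0.005, which leaves out the spread between animals. In 4033-T1, 97.2% of Chr2 probes were above 0, and in 3760-T2, 9.69% of Chr9 probes were.

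**Figure D1:**
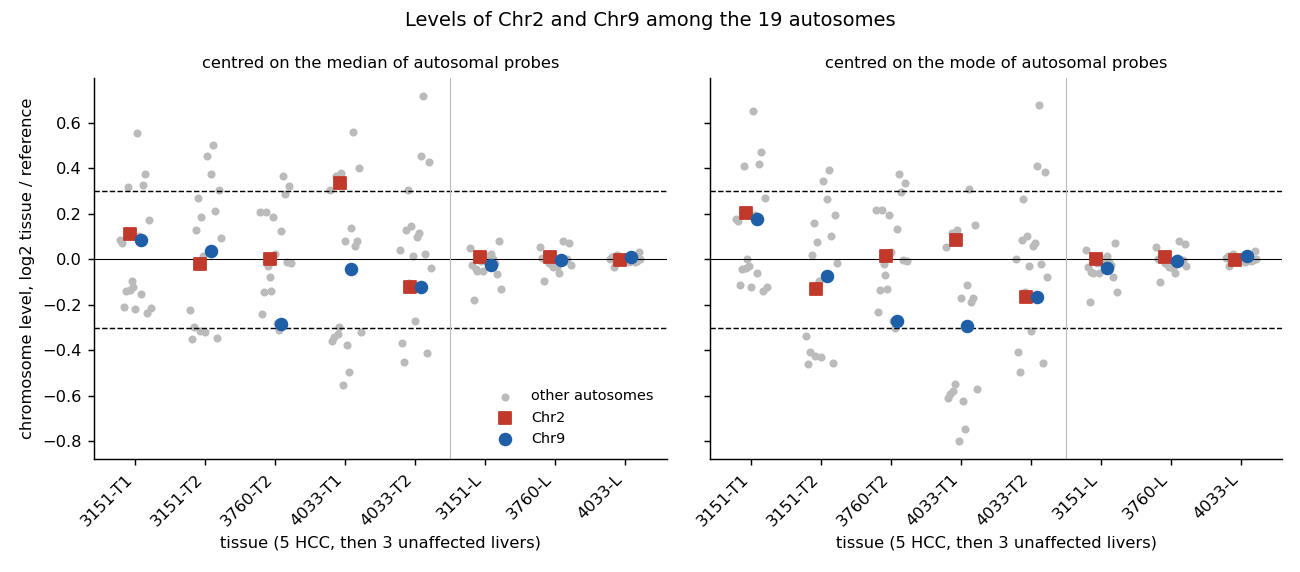
Level of each autosome (mean log2 of tissue over reference, vertical axis) in the 5 HCCs and 3 unaffected livers, with Chr2 as red squares, Chr9 as blue circles, other autosomes in grey and dashed lines at 0.3 above and below 0; arrays were centered on their median at left and on their most common value at right. At left, Chr2 of 4033-T1 is at 0.33 and Chr9 of 3760-T2 at -0.28, and at right neither chromosome passes a dashed line.

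The label of fewest changes is set out here over all 19 autosomes. HCC levels chose the pair, so its low ranks restate that choice. Chr9 was the only autosome that passed 0.3 in no HCC, and Chr2 was one of 9 that passed it in 1. The mean absolute level over HCCs was smallest for Chr9 at 0.113 and next for Chr2 at 0.118, ahead of Chr19 at 0.136. When the liver of the same mouse was subtracted, Chr2 came first at 0.120 and Chr9 second at 0.128. The order depended on where 0 was set. Centering each array on its most common value, in place of its median, moved 4033-T1 most, by 0.25, and with that center Chr2 of 4033-T1 was at 0.08 and Chr9 at -0.29. Chr2 then ranked 3 at 0.120 and Chr9 ranked 7 at 0.197, behind Chr8 at 0.088 and Chr5 at 0.096 among others, although neither chromosome passed 0.3 in any HCC. With this center Chr9 no longer had the fewest changes by mean absolute level.

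The proximal and distal parts of each chromosome lay at similar levels. The distal part minus the proximal part of a chromosome, split at its middle, was between -0.04 and 0.02 in all tissues. In windows of 10 Mb (19 on Chr2, 13 on Chr9), 18 of 19 Chr2 windows of 4033-T1 were past 0.3, over a range of 0.275 to 0.387. Chr9 windows of 3760-T2 ran from -0.312 to -0.247, and 3 of them passed 0.3. Those of 4033-T2 covered a wider range, from -0.238 at 50 to 60 Mb to -0.045 at 30 to 40 Mb. Over HCCs minus own liver, the lowest and highest Chr2 windows were 180 to 190 Mb at 0.035 and 40 to 50 Mb at 0.077. On Chr9, these were 50 to 60 Mb at -0.082 and 30 to 40 Mb at -0.035. Minus own liver, the Chr9 window at 50 to 60 Mb was -0.277 in 4033-T2 and -0.258 in 3760-T2. In 3760-T2 the Chr9 windows minus own liver ran from -0.333 to -0.253, so this was not a low window there.

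**Figure D2:**
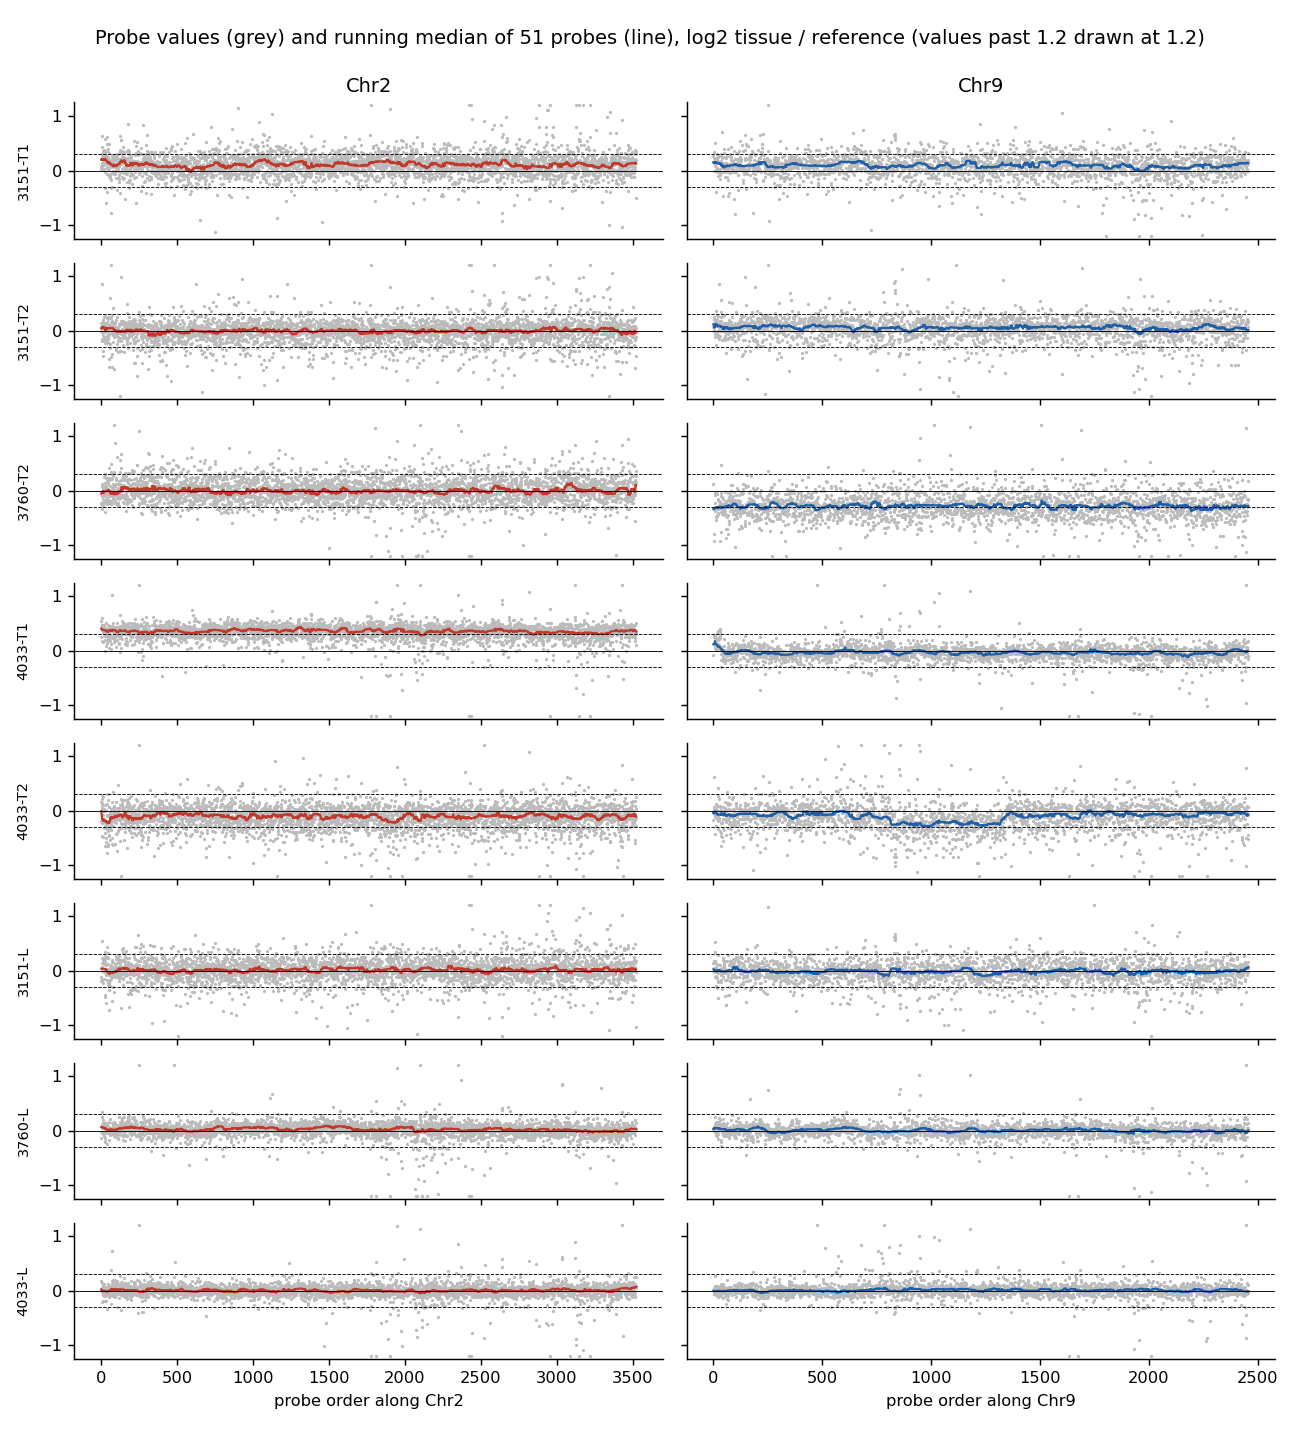
Log2 of tissue over reference at each probe (grey points; those past 1.2 are drawn at 1.2) in probe order along Chr2 and Chr9, 1 row per tissue, with the running median of 51 probes as a line and dashed lines at 0.3 above and below 0. Chr2 of 4033-T1 and Chr9 of 3760-T2 are shifted along their whole length, and the Chr9 line of 4033-T2 is lower over a long middle stretch than on either side.

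A long segment of Chr9 departed from the rest of the chromosome in 4033-T2. Segmentation of each HCC minus its own liver gave 6 segments on Chr2 and 8 on Chr9, none of them focal (under 0.5 of the probes and at least 0.3 from the chromosome median). On Chr2, 4 of 5 HCCs were a single segment, and 4033-T1 had 2, at 0.346 over 2828 probes and 0.309 over 696. On Chr9, 3 of 5 HCCs were a single segment, which in 3760-T2 held the whole chromosome. In 4033-T1, the first 34 probes (chr9:3156654-6928962), which include those of Gria4, Casp1, Casp4 and Casp12, were at 0.161 against its liver and the other 2423 at -0.058. In 4033-T2, chr9:44222606-66114489 (21.9 Mb, 598 probes) was at -0.269 against its liver, with -0.077 before it and -0.0996 after it. Inside minus outside, the level of 4033-T2 was -0.144 and did not depend on dye orientation (-0.1439 forward, -0.1435 swapped). The other HCCs differed between inside and outside by 0.005 in 3151-T1, -0.018 in 3151-T2, 0.037 in 3760-T2 and 0.012 in 4033-T1, and the livers by -0.017 to 0.034. Of its probes, 82.3% were below the median of the probes outside it. The segment was found in these data, so no test of its difference can be read as support. In the check for outlying tumors by Dixon's test, given near the end, 4033-T2 was not flagged for this difference.

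Of the genes in the lists below, 19 lay inside the segment: the spindle genes Zw10, Zwilch and Kif23, the DNA damage kinase gene Atm, the cancer genes Mll1, Pml, Smad3, Map2k1, Sdhd, Zbtb16, Csk and Pkm2, and the liver genes Apoa1, Apoa4, Apoa5, Apoc3, Cyp1a1, Cyp1a2 and Nnmt. The segment was drawn where 4033-T2 was lower than 4033-L, so the values of these genes restate that choice and support nothing. They were lower in 4033-T2 than in 4033-L at 19 of 19, with a median of -0.23 against 0.06. Of the 42 list genes on Chr9 outside the segment, 32 were lower in 4033-T2 than in 4033-L, with a median of -0.08 against -0.00. Kif23, a kinesin of the central spindle, was -0.71 in 4033-T2, 0.07 in 4033-L and -0.02 in 4033-T1. Atm, which starts the response to DNA double-strand breaks, was -0.40 in 4033-T2, 0.06 in 4033-L and -0.01 in 4033-T1. Smad3, a transducer of TGF-beta signals, was -0.27 in 4033-T2, 0.06 in 4033-L and -0.15 in 4033-T1. In these 3 genes 4033-T2 was the lowest of the tissues of mouse 4033. Zbtb16 and Nnmt stayed above 0 in 4033-T2, at 0.14 and 0.29, as in the liver, at 0.23 and 0.38.

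**Figure D3:**
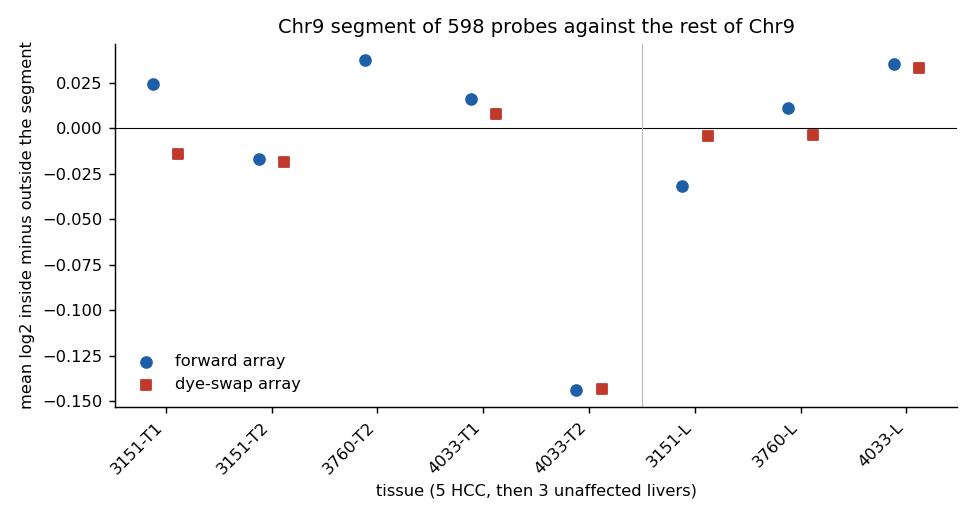
Mean log2 inside minus outside the Chr9 segment of 598 probes (vertical axis) in each of the 5 HCCs and 3 unaffected livers, with the forward array as a blue circle and the dye-swap array as a red square. Both arrays of 4033-T2 are near -0.144, and the arrays of all other tissues lie closer to 0; 3760-T2 has a forward array only.

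Most focal regions of Chr2 and Chr9 were found in a liver. Within single tissues, 35 focal segments on Chr2 merged into 14 regions and 15 on Chr9 merged into 7. Livers held all 14 Chr2 regions and 6 of 7 Chr9 regions, and 9 Chr2 regions and 3 Chr9 regions were found in at least 1 HCC and 1 liver. Tissues averaged 4.38 focal segments on Chr2 and 1.88 on Chr9, with 1 to 12 on Chr2 and 0 to 6 on Chr9. The segmentation penalty rises with the noise of a tissue, so quieter tissues can yield more segments. On Chr2 the quietest, 4033-L (noise 0.0835) and 3760-L (0.0909), held 12 and 9, and 3151-L (0.175) held 1. The noisiest, 3760-T2 (0.203), held 3. Many segments rested on 1 probe: without its most extreme probe, 4 of 35 Chr2 segments and 5 of 15 Chr9 segments still stood 0.3 or more from the chromosome median. Most probes of the segment were past 0.3 in 2 of 35 Chr2 segments and 7 of 15 Chr9 segments.

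The Chr2 regions were grouped by the genes nearest to their strongest probes. All values here are log2 ratios minus the chromosome median of the same tissue, called relative values. The region chr2:129044972-129810936 (21 probes, including those of Ckap2l and Sirpa) held a focal segment in all 8 tissues, and its mean was 0.22 in 3151-L, 0.32 in 3151-T1, 0.29 in 3151-T2, -0.31 in 3760-L, -0.27 in 3760-T2, -0.35 in 4033-L, -0.35 in 4033-T1 and -0.26 in 4033-T2. Sirpa encodes an inhibitory receptor of myeloid cells. These means rest on few probes: 3 or 4 of the 21 were past 0.3 in the direction of the mean in each tissue, the medians over the 21 lay between -0.04 and 0.10 without separating the mice, and the most extreme probe was that of Sirpa in every tissue. The region chr2:118123209-118303391 (7 probes, Gpr176 to Srp14) was -1.05 in 3760-L and -0.97 in 3760-T2. It was -0.26 in 4033-L, -0.21 in 4033-T1 and -0.21 in 4033-T2, and -0.04, 0.14 and -0.04 in 3151-L, 3151-T1 and 3151-T2. These means also rest on few probes. The medians over the 7 probes were -0.16 in 3760-L and -0.23 in 3760-T2, with 3 and 2 probes past 0.3 in the direction of the mean. The most extreme probe there was that of Srp14, at -4.16 and -4.00. Gchfr, Dnajc17 and Ppp1r14d, at chr2:118970044-119054996, had the same order of mice by mean, with -0.88 in 3760-L, -0.55 in 3760-T2, -0.31 in 4033-L and 4033-T1, -0.23 in 4033-T2 and -0.13 to 0.08 in mouse 3151. By median over the 6 probes, 3760-L was at -0.74, 4033-L at -0.28 and 3760-T2 at -0.19, so the order did not hold. The other 11 Chr2 regions lay at Myo3a, AK034276, 105807032 to 106246044, the olfactory receptors Olfr1302 to Olfr1308, Chst14, Tyro3, Uqcc, 157807792 to 157942201, Pkig, the Wfdc genes and Slc2a10.

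On Chr9, the regions reported here lay at St3gal4, AK038437, Prss35 and Snap91, Acpp and Cpne4, Tgfbr2, and Fyco1 and Xcr1. The Acpp and Cpne4 region, chr9:104233968-104879861, was below 0 in all 8 tissues, from -0.43 to -0.24.

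The contrast of HCC with unaffected liver chose these chromosomes, so its probe counts are given as a description and nothing is read from them for Chr2 or Chr9. In a limma fit over all 19 autosomes, 0 of 40726 probes (0.0%) passed a Benjamini-Hochberg adjusted threshold of 0.05, and 3012 (7.40%) passed 0.05 unadjusted, of which 12 lay on Chr2 and 12 on Chr9.

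Differences between the mice were called at 67 Chr2 probes and 24 Chr9 probes, where 1.31% of all probes tested were called. This F test over the 8 tissues (limma, Benjamini-Hochberg over 40726 probes, 532 called) used values relative to the chromosome median, which the choice of chromosomes did not use. Tissues of 1 animal are not independent, so it describes these 3 mice and not a genotype or sex. Chr2 had 1.90% of its probes called, rank 3 of 19 autosomes, and Chr9 0.977%, rank 15, in a range from 0.256% on Chr14 to 2.31% on Chr18. Most calls were single probes: 59 of 67 on Chr2 with 8 in pairs, and 19 of 24 on Chr9 with 5 in 1 run. All tissues of mouse 3151 were scanned on day 2 and all of mouse 3760 on day 1, and only mouse 4033 had both. With scan day as a further term, 39 Chr2 and 22 Chr9 probes were called, of which 37 and 16 were among the calls above. The spread between mice had a median of 1.2 (0.639 to 7.25) on Chr2 and 1.10 (0.733 to 1.81) on Chr9. Mouse 3151 stood apart from mice 3760 and 4033 at 23 Chr2 probes (17 higher, 6 lower) and 10 Chr9 probes (3 higher, 7 lower), and mouse 3760 lay between the others at 31 Chr2 and 9 Chr9 probes.

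Calls on Chr2 were uneven along the chromosome. From 0 to 90 Mb, 4 of 1640 probes were called (0.244%). From 90 to 150 Mb, 33 of 1098 were called (3.01%). From 150 to 170 Mb, 26 of 569 were called (4.57%), and beyond 170 Mb, 4 of 217 (1.84%). On Chr9, 16 of 220 probes were called between 44 and 52 Mb (7.27%), 2 of 731 before and 6 of 1506 after. These limits were chosen after the values were seen, and the unevenness was not tested.

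**Figure D4:**
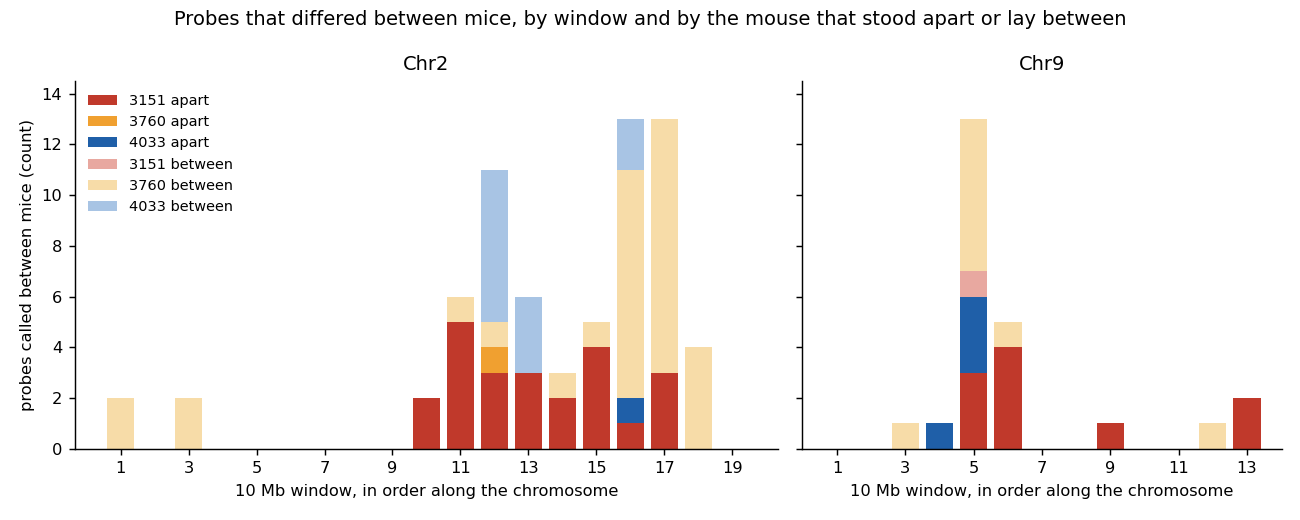
Number of probes called between mice (vertical axis) in each 10 Mb window in order along Chr2 (19 windows) and Chr9 (13 windows), colored by the mouse that stood apart or lay between the others. Chr2 calls are few in the first 9 windows, and most Chr9 calls are in the fifth and sixth windows.

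The Chr2 probe with the smallest adjusted p lay in Uqcc, an assembly factor of mitochondrial complex III. Its relative value was 2.99, 3.06 and 2.67 in 3151-L, 3151-T1 and 3151-T2, -0.02 and -0.09 in 3760-L and 3760-T2, and -2.65, -2.69 and -2.36 in 4033-L, 4033-T1 and 4033-T2 (adjusted p = 4.9e-07, limma F test). The 3 mice did not overlap and the tumors lay near their own liver, a pattern for which the test itself selects. The Sirpa probe at chr2:129434793-129434852 was 3.24, 3.58 and 2.93 in mouse 3151, -3.32 and -3.48 in mouse 3760 and -4.14, -4.40 and -3.45 in mouse 4033 (adjusted p = 1e-06, limma). The AK034276 probe at chr2:97203412-97203471 was 2.07, 1.80 and 1.95 in mouse 3151, -1.59 and -1.36 in mouse 3760 and -1.59, -1.59 and -1.42 in mouse 4033 (adjusted p = 1e-06, limma). Both separated mouse 3151 from the males. Ckap2l, which encodes a mitotic spindle protein, was 1.81, 2.40 and 1.72 in mouse 3151, -2.55 and -2.45 in mouse 3760 and -3.15, -2.99 and -2.36 in mouse 4033 (adjusted p = 4.9e-06, limma). Gpr176, a G protein-coupled receptor, was -0.07, 0.08 and 0.05 in mouse 3151, -2.75 and -2.64 in mouse 3760 and -0.73, -0.76 and -0.79 in mouse 4033 (adjusted p = 4.9e-06, limma). Mouse 3760 was lowest here, and mouse 4033 lay between.

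On Chr9 the differences were smaller. Elovl4, an elongase of very long chain fatty acids, was -0.17, -0.18 and -0.09 in 3151-L, 3151-T1 and 3151-T2, -1.38 and -1.34 in mouse 3760 and -1.46, -1.29 and -1.33 in mouse 4033 (adjusted p = 0.00016, limma). The probe at chr9:123833753-123833812, which has no gene name in the files, was -0.37, -0.57 and -0.41 in mouse 3151, 1.29 and 1.43 in mouse 3760 and 1.37, 1.33 and 0.88 in mouse 4033 (adjusted p = 0.00023, limma). Mice 3760 and 4033 were alike at both probes, on opposite sides of mouse 3151. Olfm2 was 1.18, 1.37 and 1.53 in mouse 3151, 0.75 and 0.65 in mouse 3760 and -0.11, -0.01 and 0.11 in mouse 4033 (adjusted p = 0.00046, limma). Fbxo22, an F-box protein, was -0.77, -0.74 and -0.91 in mouse 3151, -0.02 and -0.00 in mouse 3760 and 0.92, 1.09 and 0.50 in mouse 4033 (adjusted p = 0.00086, limma). Fyco1, an adaptor of autophagosome transport, was 0.07, -0.03 and -0.04 in mouse 3151, -0.93 and -0.84 in mouse 3760 and -0.87, -0.91 and -0.91 in mouse 4033 (adjusted p = 0.0011, limma). Olfm2 and Fbxo22 ordered the 3 mice, while Fyco1 set mouse 3151 apart.

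The run of 5 probes at chr9:46687599-46821302 moved as a block. Its mean was 0.63 in 3151-L, 0.53 in 3151-T1 and 0.66 in 3151-T2, 0.04 in 3760-L and -0.10 in 3760-T2, and -0.36 in 4033-L, -0.27 in 4033-T1 and -0.76 in 4033-T2. The SD over its probes was 0.038 to 0.231, and both dye orientations gave the same picture, with -0.78 and -0.71 in 4033-T2. The 5 probes to its left, at Zfp259 and Bud13, were between -0.12 and 0.04 in all tissues. The 5 probes to its right, at Cadm1, were -0.31 in 4033-T2 and -0.20 in 4033-T1, and between -0.06 and 0.09 elsewhere. The sequences share no run of letters longer than 8 bases in any of 10 pairs. The run lies inside the 4033-T2 segment described above, at its proximal part.

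At called probes the tumors mostly kept the sign of their own liver, for which the test itself selects. Of probes at least 0.3 from 0 in the liver, 4033-T1 had the same side at 55 of 55 on Chr2 and 21 of 21 on Chr9, and 4033-T2 at 53 of 55 and 21 of 21. Tumors 3151-T1 and 3151-T2 each had 51 of 52 on Chr2 and 15 of 15 on Chr9, and 3760-T2 had 37 of 38 and 11 of 11. The size of the value departed from the liver in 4033-T2 in opposite ways in a stretch of Chr2 and a stretch of Chr9. Among 10 such probes on Chr2, from the called probe of Gpr176 to that of Kcnip3 (chr2:118123209-127318314), the tumor value divided by the liver value had a median of 0.244 in 4033-T2, with 9 of 10 closer to 0 than in 4033-L. The forward array gave 0.225 and the swapped array 0.275. The median was 0.920 in 4033-T1 and 0.919 in 3760-T2 over the same stretch, and 0.774 in 4033-T2 over 45 probes elsewhere on Chr2. Values closer to 0 than in the own liver were common in these sets too. They were found at 6 of 10 probes in 4033-T1, 8 of 10 in 3760-T2 and 35 of 45 in 4033-T2 elsewhere. The count of 9 of 10 alone therefore does not set the stretch apart, and the difference lay in the median ratio. The stretch was chosen after its values were seen, and the difference was not tested.

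Named probes of this stretch show the pattern singly. Srp14, a subunit of the signal recognition particle, was -0.85 in 4033-L, -0.90 in 4033-T1 and -0.32 in 4033-T2. Chst14, a dermatan sulfotransferase, was 1.12 in 4033-L, 1.06 in 4033-T1 and 0.39 in 4033-T2. Tyro3, a receptor tyrosine kinase, was -0.62 in 4033-L, -0.54 in 4033-T1 and 0.04 in 4033-T2. In each, 4033-T1 was near the liver and 4033-T2 was closer to 0. Gpr176, whose sequence stands above with those of Srp14 and Chst14, was the exception, at -0.73, -0.76 and -0.79. The remaining probes of the stretch, in Dnajc17, Ppp1r14d, Exdl1, Hisppd2a, Ascc3l1 and Kcnip3, were also closer to 0 in 4033-T2 than in 4033-L. The same held for 35 of 45 probes elsewhere on Chr2, so the direction alone is not particular to the stretch. The level of the stretch in 4033-T2, -0.131, was close to that of the whole chromosome, -0.12. On Chr9 between 44 and 52 Mb the ratio went the other way: over 14 probes its median was 1.61 in 4033-T2 (1.52 forward, 1.64 swapped) and 0.748 in 4033-T1, and 1 of 14 was closer to 0 in 4033-T2 than in the liver. Over 7 probes elsewhere on Chr9 the median in 4033-T2 was 0.775, near that elsewhere on Chr2. The Chr9 stretch overlaps the lower segment of 4033-T2, and the values here are relative to the chromosome median, so the segment's lower level is part of them. The array of 4033-T2 was scanned on another day than those of 4033-L and 4033-T1, and the part of scan day in these ratios was not tested.

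**Figure D5:**
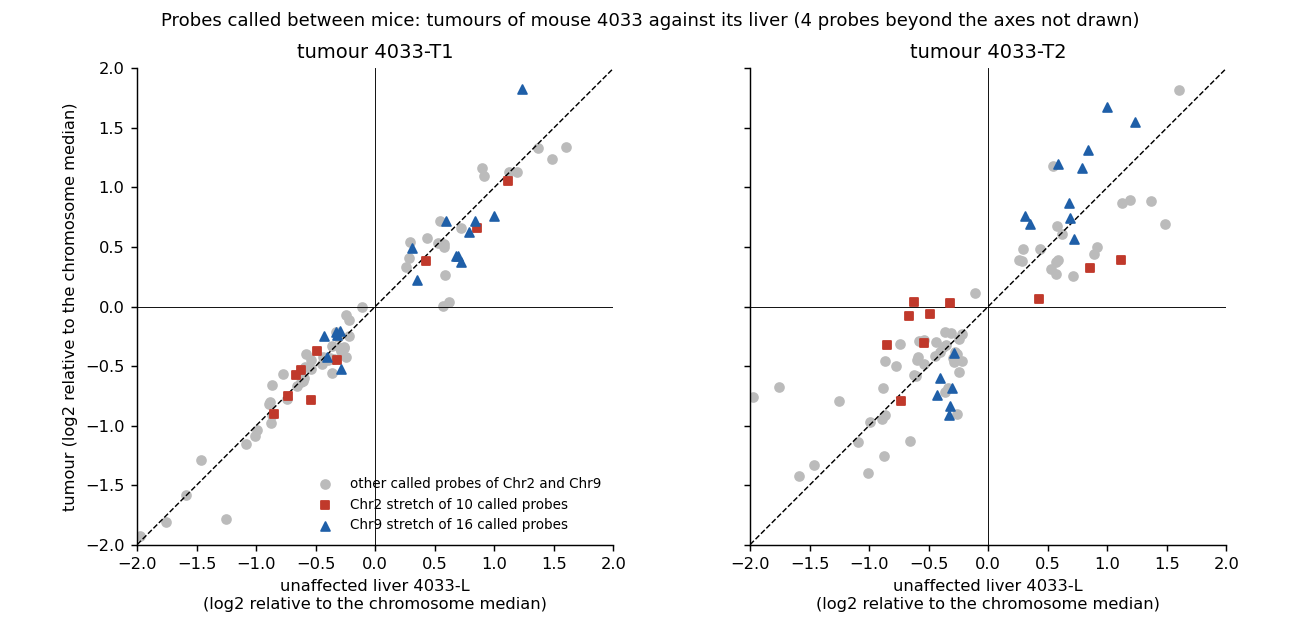
Relative value (log2 minus the chromosome median) of each called probe in 4033-T1 (left) and 4033-T2 (right) on the vertical axis against 4033-L on the horizontal axis, with the line of equal values dashed; red squares are the 10 called probes of Chr2 from Gpr176 to Kcnip3, blue triangles the 16 of Chr9 between 44 and 52 Mb, and 4 probes beyond the axes are not drawn. In 4033-T2 most red squares lie closer to 0 than in the liver and most blue triangles farther from 0.

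Gene lists were read on both chromosomes, each gene as the mean of its probes. Their HCC minus liver values are a description, since this contrast chose the chromosomes. The median of HCC minus liver over all autosomal probes was -0.00, and over all probes it was 0.05 on Chr2 and -0.06 on Chr9. The spindle list had 9 of 12 genes measured on Chr2 (median HCC minus liver 0.04) and 7 of 7 on Chr9 (-0.02). The DNA damage list had 6 of 7 on Chr2 (0.03) and 5 of 6 on Chr9 (-0.05). The cancer list had 18 of 18 on Chr2 (0.08) and 23 of 25 on Chr9 (-0.05), and the liver list 13 of 15 on Chr2 (0.05) and 15 of 16 on Chr9 (-0.02). Olfactory receptors were at 0.05 over 152 genes on Chr2 and -0.06 over 75 on Chr9, the Hoxd cluster of Chr2 at 0.05 over 8 of 10, and matrix metalloproteinases and caspases of Chr9 at -0.04 over 11 of 13. List medians lay near the median of their chromosome. Gene values and the ranking of tumors by chromosome level are given for arrays centered on their median. With the most common value as center, Chr2 was highest in 3151-T1, at 0.21, with 4033-T1 at 0.08. Chr9 was then lowest in 4033-T1, at -0.29, with 3760-T2 at -0.27.

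The 9 Chr2 spindle genes had a median of 0.08 in 3151-T1, 0.01 in 3151-T2, 0.04 in 3760-T2, 0.33 in 4033-T1 and -0.16 in 4033-T2. The 7 Chr9 spindle genes had a median of 0.07, 0.09, -0.31, -0.03 and -0.18 in the same order, and single genes departed from these medians. On Chr2 the checkpoint kinases Bub1 and Bub1b were highest at 0.47 in 4033-T1 and 0.47 in 3151-T1, and lowest at -0.30 and -0.22 in 4033-T2. Casc5, a kinetochore scaffold, ran from -0.16 to 0.32 over HCCs, and the microtubule polymerase Ckap5 from -0.33 to 0.37. Aurora kinase A (Aurka) ran from -0.18 to 0.27 and its activator Tpx2 from -0.12 to 0.38. The microtubule-binding genes Nusap1 and Mapre1 ran from -0.14 to 0.23 and from -0.08 to 0.43. All of these but Bub1b were highest in 4033-T1, the tumor with the highest Chr2 under the median center. Rae1, a nuclear export and mitotic checkpoint factor, differed, with -0.39 in 4033-T2, 0.17 to 0.38 in the other HCCs, and 0.50, 0.02 and -0.09 in 3151-L, 3760-L and 4033-L. It had the highest mean over HCCs of the list at 0.12, Bub1 the lowest at -0.02, and 1 of its 2 probes was called between mice.

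On Chr9, Ttk, the kinase that starts checkpoint signaling, ran from -0.18 in 4033-T2 to 0.34 in 3151-T1. Zw10 and Zwilch, members of the complex that brings Mad1 and Mad2 to kinetochores, were -0.31 and -0.54 in 3760-T2 and 0.69 and 0.16 in 3151-T2. Kif15 ran from -0.31 to 0.07 and Ccnb2, a mitotic cyclin, from -0.10 to 0.31. Cep63, a centrosome protein, had the lowest mean at -0.17, and Ccnb2 the highest at 0.05. Of the 7, only Ccnb2 was lowest outside 3760-T2 and 4033-T2, the tumors with the lowest Chr9 under the median center.

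Among DNA damage and cell cycle genes of Chr2, E2f1 had the highest mean over HCCs at 0.14 and Cdc25b, a phosphatase that activates cyclin-dependent kinases, the lowest at -0.13. Rbl1 ran from -0.07 to 0.36, Mybl2 from -0.24 to 0.28 and Trp53bp1 from -0.34 to 0.30. E2f1, Cdc25b, Rbl1, Mybl2 and Trp53bp1 were each highest in 4033-T1, the tumor with the highest Chr2 under the median center. On Chr9, Topbp1 ran from -0.06 to 0.24, Chek1 from -0.36 to 0.11, Cdc25a from -0.22 to -0.00 and Atm from -0.40 to 0.08.

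In the cancer list, Abl1 (0.00) and Zfp217 (0.23) bounded Chr2 and Sdhd (-0.15) and Rassf1 (0.40) bounded Chr9 by mean over HCCs. Rassf1, a tumor suppressor gene, was also high in the livers, at 0.60. In the liver list, the bile salt pump gene Abcb11 (-0.04) and Pck1, the gluconeogenic enzyme gene (0.12), bounded Chr2. Apoa5 (-0.11) and Cyp1a1 (0.19) bounded Chr9, and Cyp1a1 was 1.58 in 3151-T2. The ends of the other lists were Hoxd11 (-0.02) and Hoxd8 (0.15), Mmp10 (-0.15) and Casp4 (0.09), Olfr1308 (-0.58) and Olfr345 (0.38) on Chr2, and Olfr873 (-0.47) and Olfr915 (0.35) on Chr9. Between mice, 1 probe each was called in the listed genes Rae1, Cd44, Olfr1302 and Olfr1308 on Chr2 and Zbtb16, Pkm2 and Nnmt on Chr9.

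Dye orientation moved Chr9 slightly, mostly in tissues scanned on day 2. In 7 tissues with both orientations, the forward minus swapped level of Chr9 was -0.0258 ± 0.0278 (SD, n = 7), and the swapped array was higher in 7 of 7 (exact sign-flip permutation test, two-sided, p = 0.0156, adjusted p = 0.0312 over the 2 chromosomes; 0.0156 is the smallest that flipping the signs of 7 tissues can give). The largest difference was in 3151-L, at -0.078. It was -0.037 in 3151-T2, -0.032 in 3151-T1 and -0.029 in 4033-T2, scanned like 3151-L on day 2. In tissues scanned on day 1 it was -0.0025 in 3760-L, -0.0018 in 4033-T1 and -0.0007 in 4033-L. The part of scan day was not tested. The Chr9 call did not remain under the deposited log ratios, another background correction, the other center or GC correction. Removing any tissue gave the smallest p that the fewer tissues allow, 0.0312 (exact sign-flip permutation test), with adjusted p = 0.0625. The loss of the call there does not bear on it. On Chr2 it was -0.0205 ± 0.0254 (SD, n = 7), with the swapped array higher in 5 of 7 (exact sign-flip permutation test, p = 0.0781, adjusted p = 0.0781). The level of high-GC probes minus low-GC probes was between -0.045 and 0.062 on Chr2 and between -0.038 and 0.040 on Chr9.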

How the data were processed

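Genomic DNA of 8 tissues was hybridized to 15 two-color Agilent arrays, 7 tissues in both dye orientations and 3760-T2 in the forward orientation alone. Per the file headers, the Feature Extraction software gave each spot a processed signal intensity after background subtraction, detrending and dye normalization, and a LogRatio in log10 of red over green. The deposited value table held the same log10 ratio, with the sign turned on dye swaps. The genome build is not given in the sources used here.

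Log2 of red over green processed signal was computed and turned to tissue over reference. Control spots and those with any of 4 kinds of outlier flag were dropped. Replicate spots of a probe were averaged, and arrays were centered on the median of autosomal probes, without loess. The 2 orientations of a tissue were averaged to 1 value. Chromosomes past 0.3 were called changed. Segments were found by least squares with a penalty factor of 3 and at least 5 probes, and called focal when under 50% of the probes and at least 0.3 from the chromosome median. Fits were made in R 4.3.3 with limma 3.58.1 and the rest in Python 3.11.15 (pandas 2.3.3, numpy 2.4.6 and scipy 1.17.1), with Benjamini-Hochberg adjustment over all 40726 autosomal probes and a threshold of 0.05. Procedures were tested on simulated data.

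Chromosomes, gene lists, named genes and alternatives were chosen with earlier results of these data known. Named were the 5 probes of each chromosome with the smallest adjusted p between mice and every run of called probes, every focal region, the ends of each gene list with all spindle and DNA damage genes, and the extreme windows, apart from a few items that are not reported here. Genes are named as on the array. The labels number tumors within a mouse and not across groups, so tissues were paired by animal. An HCC and the liver of the same mouse deviated together from their group means (correlation 0.126 to 0.288 over probes). The main fit of HCC against liver had no term for mouse, and mouse as a block was an alternative. Alternatives covered the center, the signal, background correction, dye orientation, dim spots, GC content, scan day, segmentation settings and each tissue left out. Tissues of one mouse are not independent animals, so p-values measure the spread between these tissues only.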

Additional observations from a re-analysis of the deposited data

Results flagged for a closer look

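Of 46 sets of values over the 5 HCCs that were checked, 7 held 1 tumor far from the other 4 by Dixon's test. A rate of 5% would give 2.3, but that rate does not apply to these sets. Genes of the same chromosome share the level of a tumor, and some sets were picked by their HCC values. Nothing is read from the count. Tpx2 was 0.38 in 4033-T1 and Abl1 0.35 in 4033-T1, the tumor in which Chr2 was highest with arrays centered on their median. Rae1 was -0.39 in 4033-T2 and Kif23 -0.71 in 4033-T2. Zw10 was 0.69 in 3151-T2, Topbp1 was 0.24 in 3151-T1 and Mmp10 was -0.76 in 3760-T2. The part of single probes in these values was not tested.

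The level of Chr9 minus the own liver was above 0 in both HCCs of mouse 3151 (mean 0.09) and below 0 in the 3 HCCs of mice 3760 and 4033 (mean -0.16), a difference of 0.24. It was flagged because every tumor of one group moved one way and every tumor of the other the opposite way, and the difference was not tested. Mouse 3151 also differed from the others in sex, p53 genotype and reference DNA, which cannot be told apart here. With arrays centered on their most common value, Chr9 of 3151-T2 was at -0.08, below 0 like the other mice.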

How the results depend on the processing

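HCC minus liver moved by less than the SD between HCCs in 19 alternatives for each chromosome, but its sign was not fixed (-0.0225 to 0.165 on Chr2, -0.168 to 0.0255 on Chr9). Pairing tissues by animal as a replicate block, with the liver of the same mouse subtracted, gave 0.06 (Chr2) and -0.06 (Chr9) and changed no call. Leaving out one tissue at a time gave levels from -0.014 to 0.100 on Chr2 and from -0.0973 to -0.00584 on Chr9. Between mice, 67 Chr2 probes became 42 with forward arrays only and 39 with scan day as a further term, and 24 Chr9 probes became 15 with forward arrays only. These settings called 297 and 294 of all probes, against 532. Leaving out single tissues gave 43 to 66 on Chr2 (43 without 3151-L) and 15 to 26 on Chr9 (15 without 3151-T2). The forward minus swapped level reversed on Chr2 with normexp, to 0.00294. On Chr9 the call was lost with the deposited LogRatio (-0.0209), normexp (-0.00758), the most common value as center (-0.0351) and GC content regressed out (-0.0216, chosen after seeing the data). Without any one tissue (-0.0300 to -0.0171) it was also lost. There the exact test over 6 tissues cannot go below p = 0.0312, and its adjusted p was 0.0625, so this loss does not bear on the call. The cause was not tested. Few tissues, all of 3 mice, limit every comparison.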
